A study of Mus musculus with 4 samples.

Results

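*Lyve1*, *Folr2*, *Cd163*, *Mrc1*, *Cbr2*, *Fcrls* and *Prune2* are 7 genes whose transcripts mark subsets of tissue-resident macrophages or were grouped with such markers here, and they were followed in large peritoneal macrophages (LPMs) labelled wild type (WT) or Rxra-KO. The genes were found by their symbols among the 18364 genes of the expression table, and all 7 were present. They had been chosen on the measured difference between the Rxra-KO and WT libraries, so their difference between the genotypes is described here without a test. The study asked how retinoid X receptor alpha (RXRα), a nuclear receptor that pairs with other nuclear receptors, shapes the transcriptome of LPMs.

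RNA was sequenced in bulk from LPMs of C57BL/6 mice aged 8 weeks, with 2 libraries for each genotype. The cells were sorted as F4/80+ CD102+ and negative for MHC class II, and went through the sorter a second time. The labels give the genotypes as wild type and Rxra-/-. Per the methods of the study, the mutants were LysM Cre+ Rxra fl/fl mice, in which the recombinase is expressed from the *Lyz2* locus of myeloid cells, and the controls were Rxra fl/fl mice. The deletion is therefore not restricted to LPMs. Nothing in the labels says whether replicates came from separate mice, so each SD measures the spread between libraries, which may be technical. Per its methods, the study excluded samples that failed to cluster with their condition. Those are not analysed here.

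Depth was 629030 to 1047021 reads per library, recovered from the normalised values as described with the processing, and 1 read was worth a normalised value of 0.993 to 1.51. *Rxra* counted 20 and 28 WT reads and 33 and 77 reads for the libraries carrying the Rxra-KO label, so the targeted gene was not lower where its deletion was labelled (log2 fold change 0.99, limma with Benjamini-Hochberg adjusted *p* = 0.183). The count covers the whole gene, deleted and remaining exons alike, so it is a weak check of the deletion. *Lyz2*, which the inserted recombinase disrupts, fell from 9420 and 10684 reads to 4241 and 6272 reads. All directions below are between libraries as labelled. Of 20 genes of LPM identity, limma called 18 lower in Rxra-KO as labelled, against 0.969% of all 18364 genes. Among them were *Gata6*, the transcription factor that specifies LPMs, and *Icam2*, which encodes the CD102 of the sort. The list was drawn up with earlier results of these data known, so it is no independent check of the labels. *Gata6* was detected in every library, with 35 and 65 WT reads and 3 and 24 Rxra-KO reads.

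Resident macrophages of many organs fall into subsets that differ in their surface receptors. Cells with LYVE1, FOLR2, CD163 and the mannose receptor CD206 lie along vessels and in the interstitium and are known for endocytosis and scavenging, while monocyte-derived cells with high MHC class II usually carry less of these receptors. In the peritoneal cavity, LPMs depend on GATA6 and retinoic acid, and the small peritoneal macrophages (SPMs) are replaced from blood monocytes. SPMs carry high MHC class II, yet the study counts *Mrc1* and *Fcrls* among genes found as a rule only in them.

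*Lyve1* encodes a cell-surface receptor for hyaluronan, best known from lymphatic endothelium. Its normalised values were 79.5 and 11.4 for the WT libraries and 1109 and 846 for those labelled Rxra-KO, from 52, 10, 736 and 851 reads. Both Rxra-KO libraries lay above both WT libraries, and the lower Rxra-KO library was 10.6-fold above the higher WT library. The group means (SD, n = 2) were 45.4 ± 48.2 for WT and 977 ± 186 for Rxra-KO, a log2 fold change of 4.94. Its standard error was 0.28 in limma, which borrows the spread almost wholly from other genes (227 prior against 2 residual degrees of freedom), and 1.36 from the 4 values of *Lyve1* alone. Log2 fold changes are differences of group means of log2(value + 1), which understates the change of low genes. The spread between the WT libraries was as large as their mean, whereas the Rxra-KO libraries were close to each other.

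*Folr2* encodes folate receptor beta, the folate receptor of the myeloid lineage, held at the membrane by a lipid anchor. *Folr2* values were 46.2 and 7.05 over the WT libraries and 513 and 519 over the Rxra-KO libraries, from 30, 6, 340 and 522 reads. The WT libraries lay far apart, the Rxra-KO libraries were nearly equal and the groups did not overlap. The means were 26.6 ± 27.7 and 516 ± 4.43 (SD, n = 2), with a log2 fold change of 4.73 (standard error 0.31 in limma and 1.28 from its own libraries).

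*Cd163* encodes the scavenger receptor that takes up complexes of haemoglobin and haptoglobin. Values of *Cd163* stood at 46.2 and 37.4 over the WT libraries and 1561 and 756 over the Rxra-KO libraries, from 30, 34, 1036 and 761 reads. Here the WT libraries were alike and the spread lay within Rxra-KO, where replicate 1 was the higher. The means were 41.8 ± 6.19 and 1158 ± 569 (SD, n = 2), with a log2 fold change of 4.67 (standard error 0.25 in limma and 0.54 from its own libraries).

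*Mrc1* encodes CD206, the mannose receptor, which binds glycoproteins with terminal mannose and delivers them to endosomes. *Mrc1* values were 96.1 and 27.7 over the WT libraries and 1011 and 739 over the Rxra-KO libraries, from 63, 25, 671 and 744 reads. This was the member with the narrowest gap between the groups, since the lower Rxra-KO library was 7.69-fold above the higher WT library. The means were 61.9 ± 48.4 and 875 ± 192 (SD, n = 2), and the log2 fold change of 4.04 (standard error 0.26 in limma and 0.91 from its own libraries) was the smallest of the members.

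*Cbr2* encodes a carbonyl reductase that uses NADPH and is widely used as a transcript marker of resident macrophages. *Cbr2* reached normalised values of 71.9 and 7.05 over the WT libraries and 1795 and 1212 over the Rxra-KO libraries, from 47, 6, 1192 and 1220 reads. WT replicate 2 was far below WT replicate 1, and both Rxra-KO libraries were at least 16.9-fold above the higher WT library. The means were 39.5 ± 45.9 and 1504 ± 412 (SD, n = 2), with a log2 fold change of 5.93 (standard error 0.29 in limma and 1.61 from its own libraries).

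*Fcrls* encodes a relative of the Fc receptors with a scavenger receptor domain, and it is best known as a marker of microglia. For *Fcrls* the normalised values were 26.5 and 1.63 over the WT libraries and 1220 and 1231 over the Rxra-KO libraries, from 17, 1, 810 and 1239 reads. A single read in WT replicate 2 puts that library below the floor of 3 reads used here for detection. The means were 14.1 ± 17.6 and 1226 ± 7.58 (SD, n = 2), and the log2 fold change of 7.17 (standard error 0.33 in limma and 1.69 from its own libraries) was the largest of the members and rank 2 of all genes.

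*Prune2* encodes a large protein of the prune and BNIP2 families that has been studied mainly in neurons. *Prune2* values were 8.33 and 8.14 over the WT libraries and 430 and 173 over the Rxra-KO libraries, from 5, 7, 285 and 174 reads. Like *Cd163*, *Prune2* was higher in replicate 1 of Rxra-KO. Its WT values were nearly equal, but 5 and 7 reads are too few to settle its pattern in WT. The means were 8.23 ± 0.135 and 302 ± 181 (SD, n = 2), with a log2 fold change of 4.89 (standard error 0.35 in limma and 0.65 from its own libraries).

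**Figure D1:**
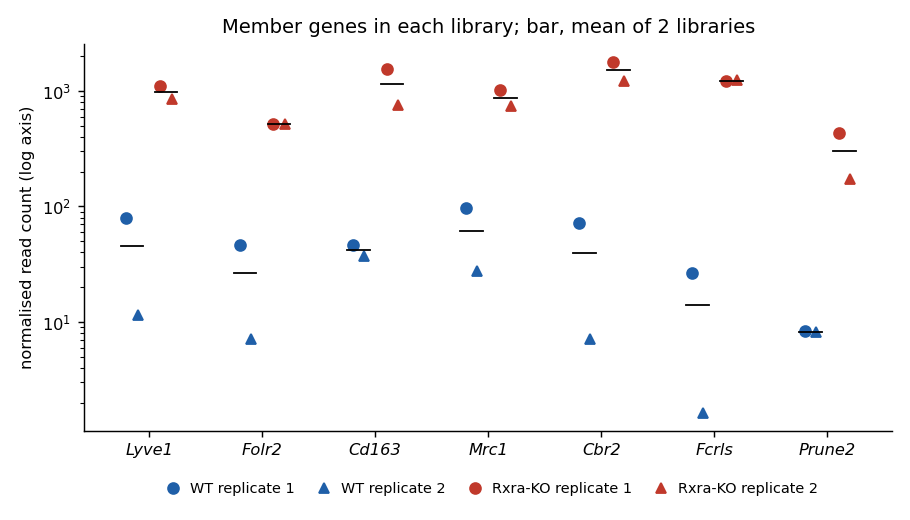
Normalised value (log10 axis) of the 7 genes in the 2 WT and 2 Rxra-KO libraries, 1 point per library, with a line at the mean of each group. For every gene both Rxra-KO points lie above both WT points, from a 7.69-fold gap for *Mrc1* to a 46.1-fold gap for *Fcrls*.

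All 7 genes were among those that limma called higher in Rxra-KO and had both Rxra-KO libraries above both WT libraries. Over all 18364 genes the limma calls were 2.29% (421 genes), with 1.32% higher and 0.969% lower in Rxra-KO, and both Rxra-KO libraries lay above both WT libraries for 18.8% of genes. Because the members were selected on this contrast, their count says nothing beyond the selection. The median log2 fold change of the members was 4.89, and that of all genes was 0.02. In bulk RNA, fewer cells of a type and less RNA per cell cannot be told apart, so a higher value may come from more cells with the transcript or from more transcript in each cell.

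Together the members took 0.0374% of the reads in WT replicate 1 (95% Wilson interval 0.0330 to 0.0424) and 0.00939% in WT replicate 2 (0.00763 to 0.0116). In Rxra-KO they took 0.806% (0.784 to 0.828) and 0.526% (0.513 to 0.540). Their summed normalised value averaged 238 ± 194 across WT and 6558 ± 1529 across Rxra-KO libraries (SD, n = 2), a 27.6-fold ratio of means. The make-up of this sum was not constant. *Fcrls* held 6.97% and 1.12% of the members' WT reads and 15.98% and 22.5% of their Rxra-KO reads, while *Mrc1* held 25.8% and 28.1%, then 13.2% and 13.5%, in the same order. *Cd163* held 38.2% of the members' reads in WT replicate 2, more than in any other library. The reads carry no molecular identifiers and are not independent molecules, so these intervals cover counting error only.

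Levels of different genes were compared only per kilobase, with the length of the longest coding transcript in GENCODE M21. In Rxra-KO the mean normalised value per kilobase was 1355 ± 372 for *Cbr2*, 539 ± 3.34 for *Fcrls*, 428 ± 3.68 for *Folr2* and 338 ± 64.3 for *Lyve1* (SD, n = 2). It was 261 ± 128 for *Cd163*, 163 ± 35.7 for *Mrc1* and 24.1 ± 14.5 for *Prune2*. In this order the libraries of *Lyve1* and *Cd163* overlapped, as did those of *Cd163* and *Mrc1*, so these neighbours were not ordered beyond their spread. The table does not separate isoforms, and the coding transcripts run from 1.80 to 12.5 kb for *Prune2*, from 0.374 to 1.204 kb for *Folr2*, from 0.461 to 1.11 kb for *Cbr2* and from 0.690 to 2.27 kb for *Fcrls*. The order depends on this choice, since with its shortest transcript *Folr2* would stand at 1379 per kilobase, above the 1355 of *Cbr2* and the 539 of *Fcrls* with their longest. In WT the mean per kilobase ran from 0.658 ± 0.0108 for *Prune2* to 35.6 ± 41.3 for *Cbr2*. Apart from *Prune2*, which was lowest in both WT libraries with its longest transcript, the ranges of neighbouring genes in WT overlapped. In WT replicate 2 *Prune2* stood at 0.650 and *Fcrls* at 0.716 per kilobase, from 7 reads and 1 read. The low place of *Prune2* depends on the transcript too. With its shortest it would stand at 167 in Rxra-KO, above the 163 of *Mrc1*.

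The replicates were also compared within a genotype, in the same libraries on which the genes were chosen. In WT, the ratio of replicate 1 to replicate 2, scaled for library size, was 23.7 for *Fcrls* (95% exact counting interval 3.72 to 992), 10.9 for *Cbr2* (4.66 to 31.3), 7.26 for *Lyve1* (3.65 to 16.02), 6.98 for *Folr2* (2.86 to 20.5) and 3.52 for *Mrc1* (2.18 to 5.84). The intervals cover counting error only, for reads that are not independent molecules, and do not test one gene against another. *Cd163* had a ratio of 1.23 (0.728 to 2.07). *Prune2* had 0.997, but its 5 and 7 reads gave an interval of 0.249 to 3.65, which includes the ratio of *Mrc1* and leaves its pattern in WT undetermined at this depth. In Rxra-KO *Prune2* at 2.48 (2.05 to 3.02) and *Cd163* at 2.06 (1.88 to 2.27) had the highest ratios, and *Folr2* and *Fcrls* were nearly equal between replicates at 0.987 (0.859 to 1.13) and 0.991 (0.906 to 1.08). The other members in Rxra-KO had ratios of 1.31 to 1.48.

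**Figure D2:**
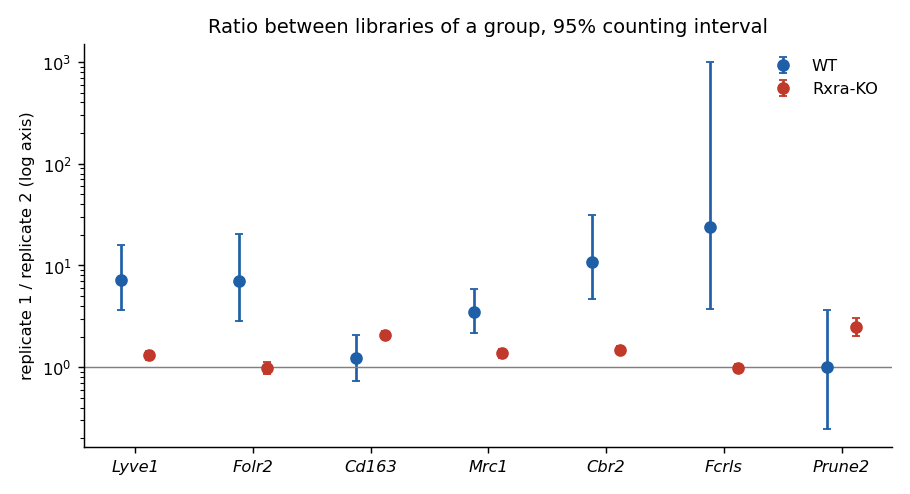
Ratio of replicate 1 to replicate 2 within each genotype for the 7 genes (log10 axis), with 95% exact counting intervals as bars and a line at equal replicates. In WT 5 genes lie above the line with ratios of 3.52 to 23.7 and the intervals of *Cd163* and *Prune2* include it, and in Rxra-KO the ratios are 0.987 to 2.48.

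The gap between the WT libraries was counted over other genes as well. The difference of WT replicate 1 from replicate 2 was at least 1 on the log2 scale for 5 of the 7 members and for 639 of 10049 genes (6.36%) with a mean normalised value of at least 10 over the 4 libraries. Over all 18364 genes it was 13.4%. Neither background is matched for the level in WT, where the members were low, so the counts are given as a description only. The median difference was 2.55 for the members, -0.02 for those 10049 genes and 0.19 for the 243 genes called higher in Rxra-KO. In Rxra-KO the same difference reached 1 for 2 of the 7 members and for 5.22% of the 10049 genes. The WT libraries also differed in their MHC class II transcripts, in the opposite direction. The summed normalised value of 7 MHC class II genes was 479 in WT replicate 1 and 2913 in WT replicate 2, and 257 and 794 in Rxra-KO. Of these genes *H2-Ab1* was called lower in Rxra-KO, with overlapping libraries of 241 and 2289 WT reads and 106 and 614 Rxra-KO reads. The part of this difference in the members' values was not tested. Leaving out WT replicate 2 gave log2 fold changes of 3.59 for *Lyve1*, 3.45 for *Folr2*, 3.16 for *Mrc1*, 4.34 for *Cbr2* and 5.48 for *Fcrls*, and leaving out WT replicate 1 gave 6.29, 6.00, 4.92, 7.52 and 8.87. For *Cd163* and *Prune2* the Rxra-KO libraries mattered more, with 4.15 and 4.24 without Rxra-KO replicate 1 and 5.20 and 5.54 without Rxra-KO replicate 2.

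Over the 4 libraries, the profile of each gene was centred on its own mean log2 value and compared with the median profile of the members by the root mean square difference. *Lyve1* was closest to the median profile at 0.18 and *Fcrls* farthest at 1.14. Between single members, *Cd163* and *Prune2* were the nearest pair at 0.17, followed by *Lyve1* and *Folr2* at 0.19, and *Fcrls* and *Prune2* were the farthest at 1.71. The WT profile of *Prune2* rests on 5 and 7 reads. Among 10049 genes, the non-members with the closest profiles were *Gcnt1* at 0.27, a glycosyltransferase of O-glycans, and *Fxyd2* at 0.43, a regulator of the sodium pump. *Gcnt1* had 4, 0, 83 and 60 reads and *Fxyd2* had 6, 2, 166 and 99 reads. Next came *F13a1* at 0.51, the A subunit of coagulation factor XIII, and *Retnla* at 0.54, a secreted protein of alternatively activated macrophages. *F13a1* had 186 and 45 WT reads and 1622 and 1632 Rxra-KO reads, with the same high WT replicate 1 as *Lyve1*. *Rcn3*, *Rnase4*, *Tfrc*, *Clec4b1*, *Cd209d* and *Ccr2* completed the 10 closest genes, with differences of 0.71 to 0.98. Of these 10, the study names *Retnla*, *Clec4b1*, *Cd209d* and *Ccr2* among genes found as a rule only in SPMs. *Clec4b1* and *Cd209d* had 0 reads in both WT libraries, so their WT profile is that of an undetected gene. These likenesses rest on 4 libraries and on the contrast that selected the members.

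**Figure D3:**
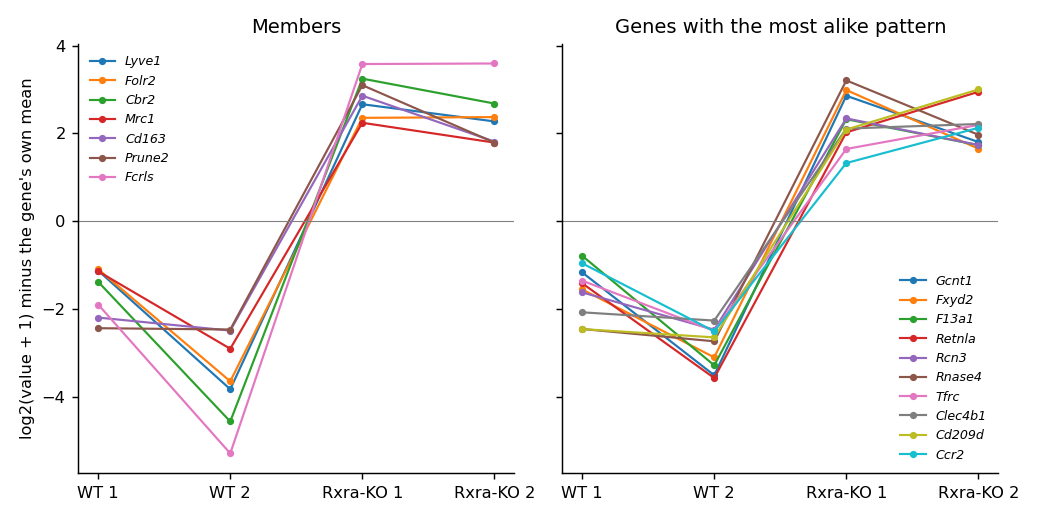
Log2 values centred on each gene's mean in the 4 libraries, for the 7 members and the 10 other genes closest to their median profile. The median member profile is -1.38 and -3.64 in the WT libraries and 2.86 and 2.27 in Rxra-KO.

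Promoter sequences are shown because all members differed between the groups in the same direction. The 150 bases upstream of each annotated start were taken from RefSeq on GRCm38.p6 for 6 of the 7 members, with 2 starts for *Folr2*. *Lyve1* had no entry. The expression table holds no coordinates. Capitals mark AGGAAG, the core bound by ETS factors such as the macrophage factor PU.1, and TGCTGA, part of the site of MAF factors, on either strand, so that the reverse complement of AGGAAG appears in capitals as well.
Folr2, first start, chr7:101845332-101845481, reverse strand: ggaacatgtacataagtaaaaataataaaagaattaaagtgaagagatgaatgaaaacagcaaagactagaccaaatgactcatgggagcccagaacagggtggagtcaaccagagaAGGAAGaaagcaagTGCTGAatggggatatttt
Folr2, second start, chr7:101857191-101857340, reverse strand: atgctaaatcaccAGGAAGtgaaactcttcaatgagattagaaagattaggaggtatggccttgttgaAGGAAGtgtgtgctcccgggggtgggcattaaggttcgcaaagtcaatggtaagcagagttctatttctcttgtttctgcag
Cd163, chr6:124304501-124304650, forward strand: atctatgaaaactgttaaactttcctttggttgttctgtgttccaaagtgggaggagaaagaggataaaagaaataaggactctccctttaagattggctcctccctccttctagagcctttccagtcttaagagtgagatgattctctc
Mrc1, chr2:14229264-14229413, forward strand: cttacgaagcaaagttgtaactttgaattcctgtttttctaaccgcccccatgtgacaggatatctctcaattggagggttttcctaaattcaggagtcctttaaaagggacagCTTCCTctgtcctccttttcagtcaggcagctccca
Cbr2, chr11:120732022-120732171, reverse strand: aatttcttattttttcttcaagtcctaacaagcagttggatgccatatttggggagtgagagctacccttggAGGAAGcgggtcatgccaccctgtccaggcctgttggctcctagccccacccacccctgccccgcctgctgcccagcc
Fcrls, chr3:87263525-87263674, reverse strand: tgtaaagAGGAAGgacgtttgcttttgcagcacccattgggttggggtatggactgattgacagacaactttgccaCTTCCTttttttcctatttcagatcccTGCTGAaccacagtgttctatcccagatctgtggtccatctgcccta
Prune2, chr19:16955968-16956117, forward strand: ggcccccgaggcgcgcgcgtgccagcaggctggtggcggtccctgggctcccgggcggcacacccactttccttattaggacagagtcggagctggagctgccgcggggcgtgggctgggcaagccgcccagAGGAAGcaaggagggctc

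AGGAAG lay in the printed windows of *Folr2*, *Mrc1*, *Cbr2*, *Fcrls* and *Prune2*, which is 5 of the 6 members with a window, and in 19.7% of 32817 RefSeq windows of the same length. In *Fcrls* and in the second *Folr2* window it occurred at a pair of positions. TGCTGA lay in *Folr2* and *Fcrls* and in 10.1% of all windows. AGGTCA, the hexamer read by RXR and many of its partner receptors, was in none of the members' windows and in 8.59% of all windows. AGAACA, part of the glucocorticoid receptor site, lay in *Folr2*, *Cd163* and *Fcrls* and in 9.62% of all windows. TATAAA was in none of them and in 7.58% of all windows. Repeats of AGGTCA with a spacer of 1, 4 or 5 bases, in at most 0.0305% of all windows, the MEF2 core CTANNNNTAG (1.82%) and the STAT palindrome TTCNNNGAA (4.09%) were also in none of the members' windows. Both strands were searched for each motif, and no match in the members' windows overlapped another. A match is only a stretch of letters, a missing match says only that the letters are not in this window, and no binding was measured in these libraries. The windows differed in base composition, from 38.0% G and C in the first *Folr2* window to 72.7% in *Prune2*.

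Known pathways around each receptor were then examined, with lists drawn up with earlier results of these data known. Of 184 genes over 10 pathway lists, limma called 27 higher (14.7%) and 5 lower (2.72%) in Rxra-KO. Over all genes the shares were 1.32% higher and 0.969% lower, which also stand beside the counts of each list below. The median log2 fold change of these genes was 0.19. The co-marker list, which holds other transcripts of resident and scavenging macrophages, had 13 of 31 genes higher and 2 lower, with a median of 0.63. *Cd209f*, a C-type lectin, led the list with a log2 fold change of 8.21. Its relatives *Cd209g* and *Cd209d*, at the floor in WT, were at least 97.6-fold and 14.7-fold higher, and *F13a1* had a log2 fold change of 4.06. *Sepp1*, the older name of *Selenop*, which encodes the selenium carrier selenoprotein P, had 320 and 370 WT reads and 1630 and 2128 Rxra-KO reads (log2 fold change 2.36). *Clec10a*, a galactose-binding lectin, had 7 and 10 WT reads and 64 and 75 Rxra-KO reads (2.80). *Marco*, a scavenger receptor of resident macrophages, fell by 2.41 on the log2 scale, from 1126 and 1266 reads to 137 and 401, and the complement gene *C4b* fell by 0.86. *Timd4*, the phosphatidylserine receptor that often accompanies *Lyve1* and *Folr2*, had 94 and 136 WT reads and 86 and 53 Rxra-KO reads and was not called (log2 fold change -0.80, limma with Benjamini-Hochberg adjusted *p* = 0.157). *Pf4*, another gene of the list, was 92.1 ± 3.63 in WT and 103 ± 0.242 in Rxra-KO.

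Around *Lyve1*, 2 of 19 hyaluronan genes rose and none fell. *Stab1*, the scavenger receptor stabilin-1, had a log2 fold change of 1.28 and the pattern receptor *Tlr4* one of 0.99. *Stab1* is also counted in the co-marker list. Its log2 fold change was 0.60 without WT replicate 2 and 0.95 without Rxra-KO replicate 1. DESeq2 did not call *Stab1* (Benjamini-Hochberg adjusted *p* = 0.256). *Cd44*, the other common hyaluronan receptor, had 163 and 213 WT reads and 196 and 232 Rxra-KO reads and was not called. Around *Folr2*, 1 of 22 folate genes rose and 1 fell. *Ggh*, which trims folate polyglutamates in the lysosome, had no reads in WT and 10 and 7 reads in Rxra-KO, at least 2.82-fold higher than the floor of 3 reads in each WT library and 1.78-fold without Rxra-KO replicate 1, and its call was lost whichever library was left out. *Mthfd1*, an enzyme of cytosolic folate metabolism, fell by 1.39 on the log2 scale. *Folr1*, the epithelial folate receptor, had 1 to 5 reads per library.

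Around *Cd163*, 2 of 21 genes of haemoglobin and iron handling rose. *Tfrc*, the transferrin receptor, had 28 and 17 WT reads and 233 and 517 Rxra-KO reads (log2 fold change 3.84). *Hmox1*, the haem oxygenase that breaks down the haem taken up through CD163, had 39 and 56 WT reads and 118 and 127 Rxra-KO reads (1.30). *Cd163l1*, a relative of *Cd163*, had 15 to 19 reads per library and was not called. Around *Mrc1*, 1 of 16 mannose receptor and lectin genes rose and 1 fell. These were *Cd209a*, a DC-SIGN relative (log2 fold change 1.95), and *Clec4e*, the glycolipid receptor Mincle, which fell by 0.92 on the log2 scale. *Mrc2*, the closest relative of *Mrc1*, had 6 to 14 reads per library and was not called.

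Around *Cbr2*, 2 of 17 genes of carbonyl reduction rose. *Cbr3*, a carbonyl reductase, had 7 and 7 WT reads and 21 and 48 Rxra-KO reads (log2 fold change 1.93), and *Hsd17b4*, a peroxisomal enzyme of beta-oxidation, had a log2 fold change of 1.05. *Cbr1* had 10 to 15 reads per library and was not called. Around *Fcrls*, 2 of 12 Fc receptor and Fc receptor-like genes rose. *Fcgr2b*, the inhibitory Fc receptor for IgG, had 10 and 7 WT reads and 36 and 100 Rxra-KO reads (2.60), and *Fcgrt*, the neonatal Fc receptor that recycles IgG, had a log2 fold change of 2.07. Around *Prune2*, 0 of 9 genes of the BNIP2 and prune families were called by limma. *Prune*, the older name of *Prune1*, had 8 to 13 reads per library.

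A further list held 23 transcription factors, receptors and ligands of macrophages, of which only some are known to raise members. Of these, 4 rose and none fell, with a median log2 fold change of 0.39. *Maf*, a transcription factor of resident macrophages, had 76 and 59 WT reads and 384 and 496 Rxra-KO reads (log2 fold change 2.61). *Pparg*, a nuclear receptor that pairs with RXR, was at the floor in WT and at least 5.40-fold higher in Rxra-KO, where its normalised values were 36.9 and 6.46. This bound rests on Rxra-KO replicate 1, without which it was 1.53-fold and the gene was not called. *Irf4* and *Mef2c*, both transcription factors, had log2 fold changes of 1.54 and 1.09, and *Irf4* is counted again below among genes of monocytes and SPMs. Glucocorticoids raise *Cd163* in macrophages. Of 15 glucocorticoid targets 1 rose, *Cebpd* at 1.52, and 1 fell, *Dusp1* by 1.45, while *Fkbp5*, *Tsc22d3* and *Per1* had 1 to 13 reads per library and were not called.

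**Figure D4:**
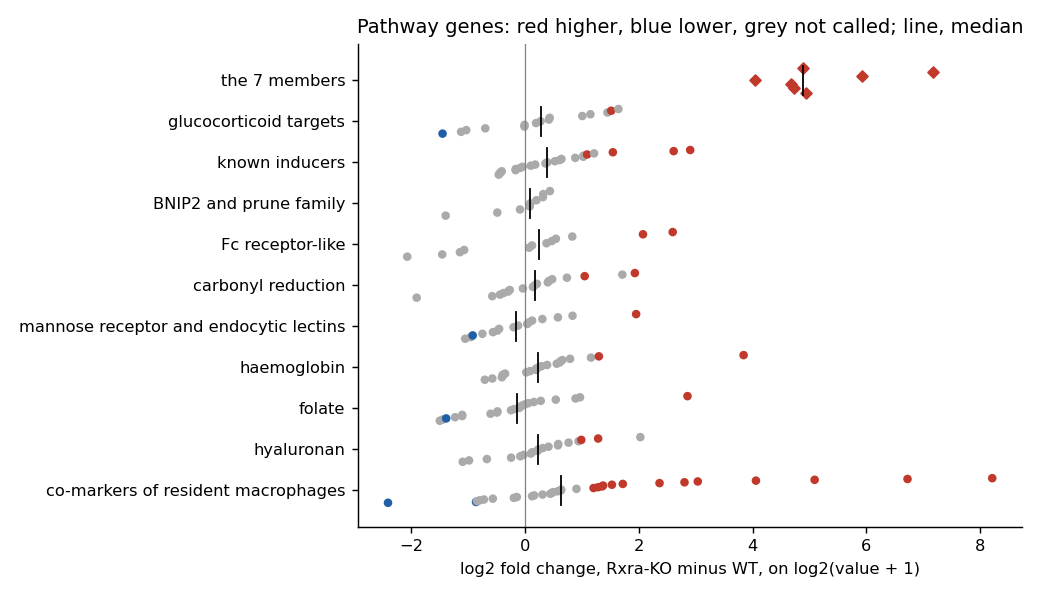
Log2 fold change of every gene of the 10 pathway lists, 1 point per gene, with genes called higher or lower by limma coloured and the median of each list as a bar. The co-marker list has the most called genes, 13 higher and 2 lower of 31, and no gene of the BNIP2 and prune families is called.

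Markers of other cells moved as follows, in lists also drawn up with earlier results known. Over all genes limma called 1.32% higher and 0.969% lower in Rxra-KO. Of 11 genes of monocytes and SPMs, 4 rose, namely the chemokine receptor *Ccr2*, *Irf4*, *Retnla* and *Clec4b1*, and none fell. Their summed normalised value was 379 and 271 for the WT libraries, then 2157 and 3898 for those labelled Rxra-KO. *Retnla* alone gave 1589 and 3013 of the Rxra-KO sums, and the median log2 fold change of the list was 0.20, with 6 of 11 genes above 0. The listed genes *Ly6c2* and *Plac8* had 0 to 5 reads per library, and *Cd226*, *Dpp4* and *Cx3cr1* had 1 to 13. The study names the 4 genes that rose among those that are as a rule found only in SPMs. It also names the members *Mrc1* and *Fcrls*, and *Cd209d*, which are not in this list or its median. *Cd209d* was called higher too, as were these members on the contrast that selected them. The part of monocytes and SPMs in the members' values was not tested. *Lyve1* is also a lymphatic endothelial gene, and 0 of 10 lymphatic endothelial markers were called by limma, and their summed value was 54.2 to 65.1 in WT and 51.6 to 91.8 in Rxra-KO. *Prox1*, the defining lymphatic factor, had 1, 5, 7 and 7 reads. *Fcrls* is a microglial gene, and 0 of 9 microglial markers were called, with summed values of 80.8 to 108 for WT libraries and 69.0 to 71.5 for Rxra-KO ones and *P2ry12* at 1 to 3 reads. Of the 8 B cell, 6 mast cell, 5 eosinophil, 4 neutrophil, 6 mesothelial and 5 fibroblast markers none was called. Common markers had no entry, namely *S100a8*, *S100a9*, *Ly6g* and *Camp* of neutrophils, *Prg2* and *Ear2* of eosinophils and *Cpa3* of mast cells. *Krt19* and *Muc16* of mesothelium, *Dcn* and *Lum* of fibroblasts and *Pax5* of B cells had none either. Many of the others had few reads, so the missing calls do not show that such cells were absent. Among 8 T cell markers *Cd2* rose and *Cd247* fell, both at the floor in 1 of the groups and *Cd2* lost its call whichever library was left out, and of 7 dendritic cell markers *Cd209a* rose. Against these, 18 of 20 LPM identity genes fell, with a median log2 fold change of -1.22 and summed values of 46577 and 48874 for the WT libraries, then 23336 and 26351 for those labelled Rxra-KO. *Icam2* had 721 and 1199 WT reads and 309 and 542 Rxra-KO reads, and *Emr1*, the older name of the F4/80 gene, had 471 and 502 WT reads and 268 and 280 Rxra-KO reads, so both sort markers stayed well detected. *Csf1r*, the receptor on which macrophages depend, was not called, at 900 and 978 WT reads and 965 and 1648 Rxra-KO reads.

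**Figure D5:**
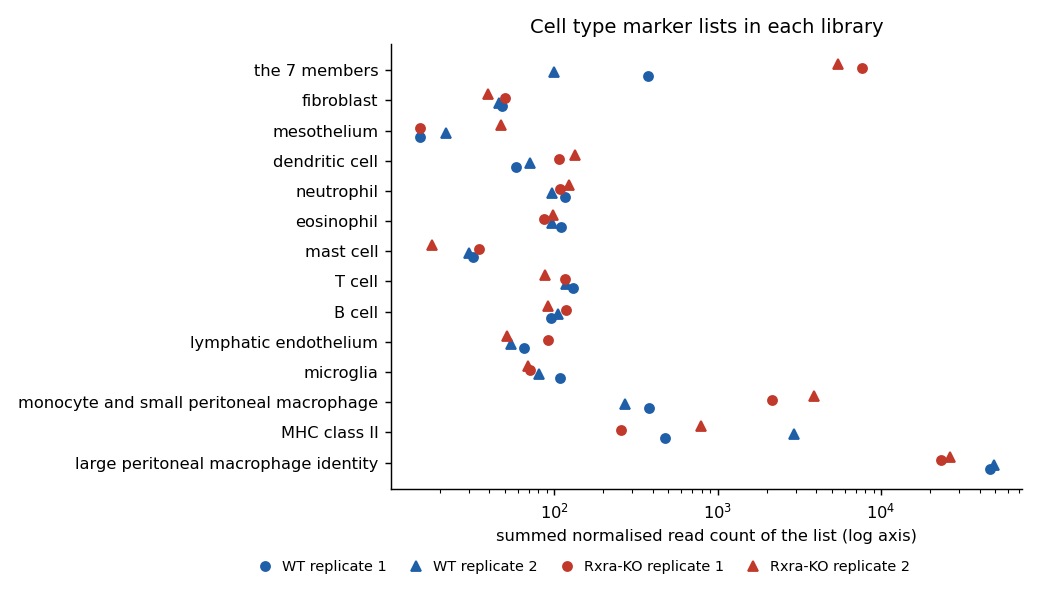
Summed normalised value (log10 axis) of 13 cell type marker lists in the 4 libraries, 1 point per library. LPM identity genes are lower in both Rxra-KO libraries, the monocyte and SPM sum, of which *Retnla* gives 1589 and 3013 in Rxra-KO, is higher in both with 4 of 11 genes called, and the lymphatic endothelial and microglial sums stay between 51.6 and 108.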

How the data were processed

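Bulk RNA was measured in 4 libraries of sorted LPMs. Per the submitters' notes and the methods, transcripts were quantified by the authors with kallisto 0.43.0 and summarised to genes with tximport, then compared with limma after TMM scaling. The reference named there is the human build GRCh38 although the libraries are mouse, and which reference was used was not settled. The deposited values are a normalised read signal. Each value equalled (reads + 0.5) times a fixed step per library, so whole read counts were recovered from the deposited signal for 100% of values (tolerance 0.001 read). Column names carry other replicate numbers than the sample titles, and the titles were followed.

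Each gene was fitted with limma 3.58.1 in R 4.3.3 on log2(value + 1) with a mean-variance trend and no covariate, over 18364 genes, two-sided, with Benjamini-Hochberg adjustment. Calls needed an adjusted p below 0.05 together with a log2 fold change of 0.6 or more in either direction. Genes had to reach a value of 1 in 2 or more libraries, which all 7 members passed and which removed no gene. The fit borrows its spread across genes, with 227 prior and 2 residual degrees of freedom. Where neither library of a group exceeded 3 reads, the fold is a bound against that floor. The limma fit was tried on simulated counts, with changes planted only in well-detected genes and the same dispersion for all genes. It therefore does not cover genes with a wider spread of their own between libraries. The text names the members, *Rxra* and *Lyz2*, at most 3 called genes per list and direction, family relatives of the members and the 10 closest profiles. Other list genes that are named (*Pf4*, *Timd4*, *Sepp1*, *Clec10a*, *Csf1r* and the uncalled markers among them) were chosen after their values were seen. Of the gene names, 17357 were current symbols, 911 were older symbols and 96 were unmatched, and 24 names were date-like. The members, the gene lists and the tests were chosen with earlier results of these data known. Alternatives were pseudocounts, filters, scalings, a replicate block, voom, edgeR 4.0.16 and DESeq2 1.42.0 on the recovered reads, and leaving out each library.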

Additional observations from a re-analysis of the deposited data

How the results depend on the processing

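The median log2 fold change of the members, 4.89, ranged from 4.34 without WT replicate 2 to 6.00 without WT replicate 1, and from 4.55 with a pseudocount of 5 to 5.02 with voom under the other settings. The log2 fold change of all 7 members stayed above 0 under every setting tried, 3.16 (*Mrc1* without WT replicate 2) being the lowest. The number of genes called, 421, fell to 0 without a mean-variance trend, with 1579 genes at an unadjusted p under 0.05. DESeq2 gave an adjusted p for only 5547 genes and called 246, 239 of them shared with limma. Over all 18364 genes edgeR called 446 and voom 422. Leaving out 1 library gave 236 (without WT replicate 2) to 377 (without WT replicate 1) calls, and 244 without Rxra-KO replicate 1. The 32 called genes of the pathway lists became 0 without a trend (37 at an unadjusted p under 0.05), 19 with DESeq2 and 22 to 28 with a library left out. The 26 called genes of the cell type lists became 0 without a trend (26 at an unadjusted p under 0.05) and 17 to 23 with a library left out. The labels tie same-numbered libraries by their number only, and deviations of these libraries correlated at 0.0629 over 10049 genes. In both genotypes replicate 2 was deeper than replicate 1 and higher in its summed MHC class II value. Whether same-numbered libraries share a batch was not tested. With the replicate number as a block 540 genes were called, all 421 included, with 35 and 26 in the lists and a member median of 4.89. Uncalled genes whose log2 fold change crossed 0 with a library left out were *Cd44* (-0.0521 without Rxra-KO replicate 1 to 0.30), *Cbr1* (-0.27 to 0.19, and 9.7e-05 without WT replicate 2), *Fcrl1* (-0.37 without Rxra-KO replicate 2 and -0.06 without WT replicate 2, to 0.62) and *Cd163l1* (-0.59 to 0.0664 without Rxra-KO replicate 2). Of 37 called genes named beside the members, all lost their call without a trend, 7 to 15 with a library left out and 9 with DESeq2, which gave 6 more no adjusted p. With a filter of 10 in at least 2 libraries 3 lost it and 3 more were no longer tested, and at most 3 lost it under any other setting. The causes were not tested. Depth limits the low genes most, and *Fcrls* in WT rests on 17 reads and 1 read.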
